A study of Mus musculus with 170 samples.

Results

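Satellite stem cells of skeletal muscle were compared between old and young mice. Their 6 libraries were taken from 170 RNA-seq libraries of 23 sorted cell types because their titles name satellite stem cells, 3 old and 3 young, and all genes were compared as old over young. Young mice were 2 months old and old mice 22 to 24 months. All were of C57/Bl6 background, and the labels give no other allele or agent and no sex. Each library pooled muscle of 5 healthy animals, sorted by flow cytometry with markers not given in the sources used here. Muscle fibroblasts of the same ages, 3 old and 3 young libraries, were the comparison from the same tissue. The satellite cell libraries held 2116669 to 2846138 counts each, and the muscle fibroblast libraries 1816124 to 5037385.

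Satellite cells are the resident stem cells of skeletal muscle. They lie between the muscle fibre and its basement membrane, and in healthy adult muscle most are quiescent. The transcription factor Pax7 marks them, Myf5 and Myod1 commit their progeny to the muscle lineage, and Myog marks the start of differentiation. Quiescence is maintained by Notch signalling, cell cycle inhibitors and the matrix of the niche. With age these cells are known to become fewer and to repair muscle less well.

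The labelled cell type was checked against its markers in all 23 cell types, as CPM, the counts of a gene per 1000000 counts of its library. Pax7 lay between 181 and 746 in the 6 satellite cell libraries, with a median of 345, and the next highest cell type, muscle fibroblasts, had a median of 11.7. Myf5 had a median of 5482 in satellite cells and 104 in muscle fibroblasts. Both markers were highest in the libraries labelled as satellite cells, whose lowest value was above the highest of any other cell type. From here on CPM is relative to the counts in tested genes, scaled by edgeR's TMM method, unless another scale is named.

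The library of young replicate 1 stood apart from the other 5. It held 293 counts of Ddx3y, a gene of the Y chromosome, where the others held 4 to 8. It also held 574 counts of Xist, a gene of the X chromosome, where the others held 682 to 1317. Of all 170 libraries 9 had over 20 CPM of Ddx3y, and all 9 were the young replicate 1 of their cell type. The summed level of 8 markers of fibroblasts or fibro-adipogenic cells was 50480 CPM in it, against 6490 and 7516 in the other young libraries and 2970 to 3753 in the old ones. The sum of 3 tendon cell markers was 786 CPM in young replicate 1 and 42.7 to 80.0 in the others. In the library of old replicate 1 the sum of 5 erythroid genes was 7885 CPM, against 444 to 1122 in the others. The sum of 5 neutrophil markers was 131 CPM in young replicate 1 and 90.8 CPM in old replicate 1, against 3.32 to 21.7 in the others. Macrophage or myeloid markers summed to 10.4 to 39.6 CPM and endothelial markers to 30.6 to 60.1 CPM. Pericyte or smooth muscle markers summed to 293 to 545 CPM. Markers of B cells, T cells and adipocytes summed to at most 7.58 CPM in any library, and 2 of the 6 B cell markers had 0 counts in all. In bulk samples such as these, fewer cells of a type and less RNA per cell cannot be told apart. Counts of called genes without each of these libraries are given below, and single values without young replicate 1.

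**Figure D1:**
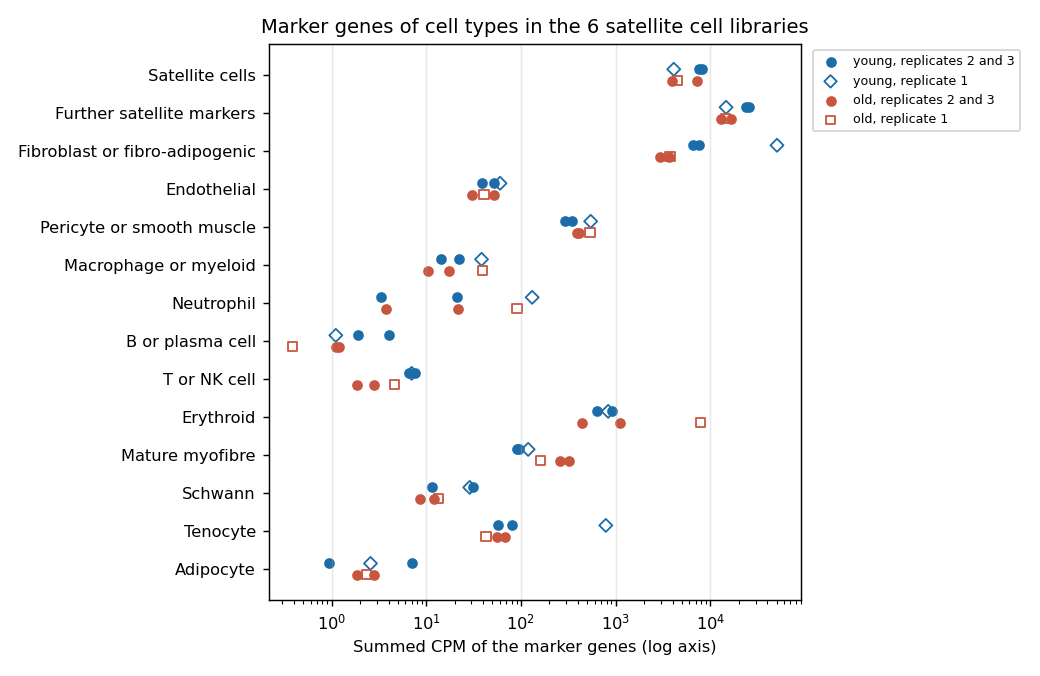
Summed CPM (x axis, log scale) of the marker genes of 14 cell types or marker groups (y axis) in the 6 satellite cell libraries, with 1 point per library and the first replicates drawn as open symbols. Young replicate 1 lies to the right of the others for fibroblast (50480 CPM) and tenocyte (786 CPM) markers, and old replicate 1 for erythroid genes (7885 CPM).

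Old and young satellite cells differed in 59 of 12204 tested genes, which is 0.483% (edgeR quasi-likelihood test, Benjamini-Hochberg adjusted p under 0.05). Of these genes 33 were higher in old cells (0.27% of those tested) and 26 were lower (0.213%). All 59 had no overlap between the 3 old and the 3 young libraries, as had 1881 of all tested genes (15.4%). The log2 fold changes of the higher genes ran from 1.15 to 4.97 with a median of 1.83, and those of the lower genes from -4.21 to -1.22 with a median of -1.58. The median over all tested genes was 0.0018. The p-values measure the spread between libraries, each of which pooled animals. The labels do not say whether libraries of different cell types shared animals. The count was 13, 15 and 9 without old replicate 1, 2 or 3, and 20 and 27 without young replicate 2 or 3. Without young replicate 1 the count was 98 of 12919 (0.759%), 40 higher (0.31%) and 58 lower (0.449%), and 52 of the 59 genes were among them.

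Sox11 had the lowest adjusted p of all genes. It encodes a transcription factor of the SoxC group that acts in neural and mesenchymal progenitors of the embryo. Its level was 442, 332 and 280 CPM in the young libraries and 22.5, 21.7 and 24.6 CPM in the old ones. The groups were far apart, and the 3 old values lay close together. The fold was 15.3 lower in old cells (log2 fold change -3.93 ± 0.26 SE, edgeR adjusted p = 1.45e-05, n = 3 against 3), and -3.73 without young replicate 1. The gene lies on chromosome 12 at 27334268 to 27342718 (GRCm38.p6).

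Sox11 was among 6 named genes that passed the threshold in all 11 alternative fits, among them the 6 that each left out a library. The others were Hyou1, Rsl24d1, Scn7a, Spock1 and Xrcc6. From these genes, which kept their call in every fit run, 3 examples are shown, Sox11, and Scn7a and Xrcc6 that were higher in old cells. Shown are the 250 bases upstream of the RefSeq transcription start. Capitals mark motifs searched on both strands. The GC box was searched as GGGCGG. The CCAAT box was searched by the letters of its name. The TATA box was searched as TATAAA. The MyoD-type E-box was searched as CAGCTG. The cyclic AMP response element was searched as TGACGTCA. The windows are chr12:27342719-27342968 on the minus strand, chr2:66784911-66785160 on the minus strand and chr15:82016119-82016368 on the plus strand of GRCm38.p6, each printed 5' to 3' along its gene. That of Xrcc6 lies inside the annotated span of the gene, 81987833 to 82040085 on chromosome 15.
Sox11: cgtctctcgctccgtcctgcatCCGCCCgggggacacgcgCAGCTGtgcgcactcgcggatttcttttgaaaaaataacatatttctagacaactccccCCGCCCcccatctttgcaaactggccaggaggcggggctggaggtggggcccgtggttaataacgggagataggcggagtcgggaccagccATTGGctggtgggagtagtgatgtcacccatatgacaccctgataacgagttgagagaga
Scn7a: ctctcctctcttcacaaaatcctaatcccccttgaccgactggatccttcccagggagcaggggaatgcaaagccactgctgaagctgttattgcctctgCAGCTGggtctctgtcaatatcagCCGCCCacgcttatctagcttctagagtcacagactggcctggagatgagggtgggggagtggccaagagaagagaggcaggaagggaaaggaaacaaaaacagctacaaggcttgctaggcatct
Xrcc6: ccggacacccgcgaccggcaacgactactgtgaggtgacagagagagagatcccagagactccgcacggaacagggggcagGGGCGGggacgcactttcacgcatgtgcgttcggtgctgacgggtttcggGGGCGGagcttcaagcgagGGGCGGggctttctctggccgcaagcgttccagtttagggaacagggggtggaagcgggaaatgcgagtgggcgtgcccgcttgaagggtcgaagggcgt
The Sox11 window held 2 GC boxes, 1 CCAAT box and 1 MyoD-type E-box, that of Scn7a 1 GC box and 1 such E-box, and that of Xrcc6 3 GC boxes. Of the windows not printed, that of Spock1 held 1 GC box and that of Rsl24d1 held 0 of the motifs. No window was found for Hyou1. Windows were found for 17 of the 26 lower and 27 of the 33 higher genes, some with several starts. A GC box was present in 17 of 23 windows of the lower genes (73.9%), in 12 of 32 of the higher genes (37.5%) and in 57.8% of 11148 windows of tested genes. The MyoD-type E-box was present in 1 of 23 windows of the lower genes (4.35%), in 7 of 32 of the higher genes (21.9%) and in 11.98% of all. These matches describe letters only, and no binding was measured.

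Col1a1, the main chain of type I collagen, had the lowest log2 fold change (-4.21 ± 0.83 SE, edgeR adjusted p = 0.0490, n = 3 against 3). Its level was 35942, 3691 and 2972 CPM in the young libraries and 1025, 843 and 435 CPM in the old ones. The groups did not overlap, but young replicate 1, which also stood apart in the sum of fibroblast markers that includes Col1a1, was far above the other young libraries. Without that library the gene was still lower in old cells, with a log2 fold change of -2.12 ± 0.30 SE (edgeR adjusted p = 0.00369). Col1a1 passed in 3 of the 6 fits that each left out a library, and its edgeR adjusted p there reached 0.259. The alternative fit with DESeq2 returned no adjusted p for Col1a1. In muscle fibroblasts Col1a1 was at 21545, 5542 and 6295 CPM in young libraries and at 3057, 2324 and 2041 CPM in old ones. There too young replicate 1 was the highest.

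Hyou1, an ATPase chaperone of the endoplasmic reticulum, was at 423, 365 and 324 CPM in young cells and at 80.7, 102 and 70.5 CPM in old cells. It was 4.40-fold lower in old cells (log2 fold change -2.14 ± 0.23 SE, edgeR adjusted p = 0.00292, n = 3 against 3). Rsl24d1, a factor in the assembly of the large ribosomal subunit, was at 357, 292 and 340 CPM in young cells and at 79.6, 93.1 and 47.8 CPM in old cells. Its log2 fold change was -2.17 ± 0.26 SE (edgeR adjusted p = 0.00535, n = 3 against 3). In both genes the young libraries lay close together and far above all old ones. Hyou1 lies on chromosome 9 at 44379490 to 44392369, and Rsl24d1 on the same chromosome at 73113469 to 73123333.

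Arf6, Arf5 and Rab12, each a small GTPase of membrane traffic, were among the 12 lower genes named by size of change, and no list of such genes was tested. Arf6 fell from 785 ± 116 to 211 ± 102 CPM (mean ± SD, n = 3 each), Arf5 from 270 ± 82.8 to 78.0 ± 14.5 CPM and Rab12 from 204 ± 57.7 to 60.7 ± 14.1 CPM. Their log2 fold changes were -1.90, -1.79 and -1.75, and their edgeR adjusted p-values ran from 0.0133 to 0.0291. Fhl3, a LIM domain protein of muscle, fell from 340 ± 71.5 to 104 ± 39.9 CPM. The others were Olfm2, a secreted olfactomedin protein, Hsd17b11, a steroid dehydrogenase of lipid droplets, Npas2 and Scml4, with log2 fold changes between -2.05 and -1.68. Old replicate 3 held the lowest of the old values in 17 of the 26 lower genes and the highest in 1.

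Xrcc6, which encodes the Ku70 subunit that binds broken DNA ends in non-homologous end joining, was higher in old cells. It was at 17.0, 9.50 and 18.5 CPM in the young libraries and at 131, 98.3 and 73.5 CPM in the old ones. The lowest old value was well above the highest young value. The log2 fold change was 2.74 ± 0.31 SE (6.68-fold, edgeR adjusted p = 0.00376, n = 3 against 3). Spock1, a secreted proteoglycan of the testican family, was at 11.4, 3.998 and 9.01 CPM in young cells and at 77.3, 99.2 and 36.9 CPM in old cells (log2 fold change 3.09 ± 0.43 SE, edgeR adjusted p = 0.0119). Scn7a, a sodium channel family member that responds to salt rather than to voltage, was at 36.5, 51.0 and 58.3 CPM in young cells and at 180, 173 and 166 CPM in old cells. The old values of Scn7a lay within a narrow range, and its log2 fold change was 1.83 ± 0.23 SE (edgeR adjusted p = 0.00656).

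Cyp26a1 and Adh1 were also among the 12 named higher genes. Cyp26a1, the cytochrome P450 that degrades retinoic acid, was at 38, 9.995 and 17.5 CPM in young cells and at 120, 116 and 207 CPM in old cells (log2 fold change 2.73 ± 0.41 SE, edgeR adjusted p = 0.0134). Adh1, an alcohol dehydrogenase that also oxidises retinol, was at 63.1, 144 and 147 CPM in young cells and at 398, 479 and 384 CPM in old cells (log2 fold change 1.83 ± 0.30 SE, edgeR adjusted p = 0.0231). For both genes the old libraries were all above the young ones. No list of retinoid genes was tested.

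Kng2, a kininogen gene, rose from 1.99 ± 1.85 to 29.4 ± 5.70 CPM (mean ± SD, n = 3 each), a log2 fold change of 3.76. Casp4, the inflammatory caspase that senses bacterial lipopolysaccharide in the cytosol, rose from 19.99 ± 2.97 to 71.9 ± 14.8 CPM. Angpt1, a ligand of the endothelial receptor Tek, rose from 5.08 ± 1.96 to 25.0 ± 4.004 CPM. Elovl4, an elongase of very long fatty acids, rose from 19.8 ± 8.13 to 74.7 ± 24.1 CPM. Kcnk1, a potassium leak channel, Tmem229a and the noncoding RNA Snhg11 had log2 fold changes of 2.33, 2.38 and 2.15. These edgeR adjusted p-values ran from 0.0119 for Kng2 to 0.0428 for Tmem229a. A further 5 called genes had a mean under 20 CPM in both groups and were named after their values were seen: Btla, Hpse2, Ccdc69, Fam184a and Npy, all higher in old cells. Of these Btla, an inhibitory receptor known from lymphocytes, was at 0.738, 0.500 and 0.474 CPM in young cells and at 31.4, 17.3 and 10.8 CPM in old cells. The 5 markers of T and NK cells summed to 6.50 to 7.58 CPM in the young and 1.87 to 4.66 CPM in the old libraries. Which cells the Btla transcripts came from was not tested.

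**Figure D2:**
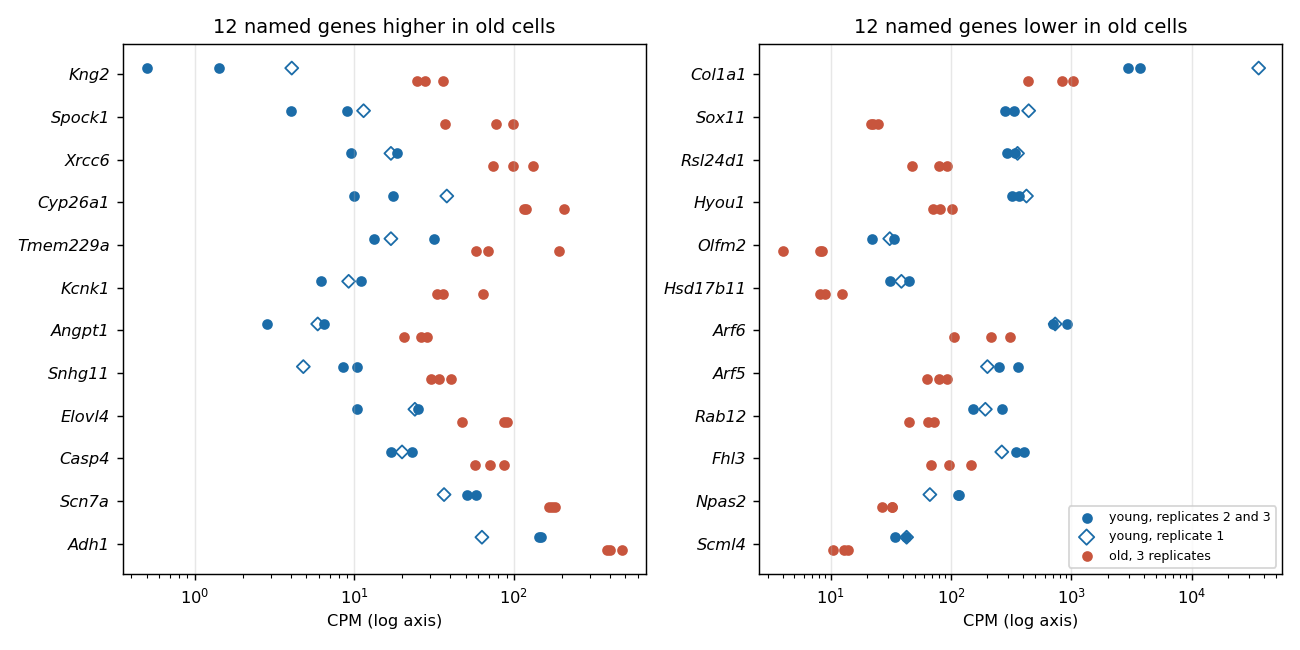
CPM (x axis, log scale) of the 12 named genes higher and the 12 named genes lower in old satellite cells (y axis), with 1 point per library and young replicate 1 drawn as an open diamond. No old point overlaps the young range in any of the 24 genes, and the diamond stands apart from the other young points for Col1a1 (35942 CPM).

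The genes that define the cells did not pass the test with the filter on low counts. Pax7 was at 190, 410 and 254 CPM in young cells and at 565, 304 and 723 CPM in old cells (log2 fold change 0.90 ± 0.34 SE, edgeR adjusted p = 0.333). Myf5 was at 3915, 7824 and 7388 CPM in young cells and at 3967, 6960 and 3177 CPM in old cells (log2 fold change -0.44, edgeR adjusted p = 0.775). Myod1 was at 163, 162 and 276 CPM in young cells and at 87.0, 99.6 and 187 CPM in old cells (log2 fold change -0.69, edgeR adjusted p = 0.475). In all 3 genes the groups overlapped. With no filter on low counts, a fit that called 412 genes, the log2 fold change of Pax7 was 0.95 (edgeR adjusted p = 0.0197), and in the other 10 alternative fits its adjusted p was 0.210 or above. The gene lists here and below, and their members, were chosen with earlier results of these data known. Their counts beside the share of all tested genes therefore describe the lists and do not test them. Of 25 tested genes of satellite cell identity 0 passed, 13 had a positive log2 fold change, and their median was 0.0019, beside 0.0018 over all tested genes.

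Among 26 quiescence regulators, 1 passed the test, beside 0.483% of all tested genes. This was Gas1, a growth arrest gene whose membrane protein also acts as a Hedgehog co-receptor, at 706, 549 and 419 CPM in young cells and at 215, 260 and 124 CPM in old cells (log2 fold change -1.48 ± 0.29 SE, edgeR adjusted p = 0.0490, n = 3 against 3). Gas1 passed in 1 of the 6 fits that each left out a library, and its edgeR adjusted p there reached 0.200. The list's median was -0.044, with 13 members positive and 13 negative. In 7 of the 26 all old libraries were below all young ones and in 2 all were above, beside 7.77% and 7.65% of all tested genes. The list's summed level was 9686 to 10942 CPM in young and 5970 to 7974 CPM in old libraries, which did not overlap. Of 18 tested genes of the Notch pathway 0 passed, with a median of 0.013 that was -0.055 without young replicate 1. The receptor Notch2 was at 2395, 3322 and 2866 CPM in young cells and 2107, 2309 and 806 CPM in old cells, and the target Hes1 at 515, 402 and 321 against 584, 547 and 638 CPM. Of 16 tested genes of FGF signalling 1 passed, Dusp6, the phosphatase that switches off ERK. It was at 161, 130 and 87.2 CPM in young cells and at 43.1, 59.8 and 45.5 CPM in old cells (log2 fold change -1.35 ± 0.26 SE, edgeR adjusted p = 0.0476). Without young replicate 1 its log2 fold change was -1.14 (edgeR adjusted p = 0.0513). Dusp6 passed in 1 of the 6 fits that each left out a library.

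Of 32 tested basement membrane and matrix genes 1, Col1a1, passed, beside 0.483% of all tested genes. In the list 24 were negative, and the median was -0.75. Without young replicate 1 the median was -0.30, and Col1a1 and Col1a2 passed, both lower, beside 0.449% of all genes tested in that fit. With all libraries, every old library was below every young one in 15 of the 32 genes and above in 3, beside 7.77% and 7.65% of all tested genes. The 8 fibroblast markers, of which Col1a1 is a member, had a median of -0.82, and -0.21 without young replicate 1. The 3 tendon cell markers had medians of -1.92 and -0.38.

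Imprinted growth genes had a median of -0.90, the lowest of the lists other than cell type markers, with 13 of 17 tested members negative. Of the 17, 1 passed the threshold, Plagl1, beside 0.483% of all tested genes. Plagl1, an imprinted zinc finger transcription factor, was at 45.4, 40.0 and 44.5 CPM in young cells and at 15.1, 17.7 and 12.7 CPM in old cells (log2 fold change -1.51 ± 0.28 SE, edgeR adjusted p = 0.0387). In 7 of the 17 genes all old libraries were below all young ones, and in 1 all were above, beside 7.77% and 7.65% of all tested genes. Without young replicate 1 the list's median was -0.46, and Plagl1 passed with a log2 fold change of -1.48. Of the 6 fits that each left out a library, Plagl1 passed in this 1. Its edgeR adjusted p reached 0.229 in the others. Dcn, which is also a fibroblast marker, is a member of this list.

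In the unfolded protein response 1 of 24 tested genes passed, Hyou1, beside 0.483% of all tested genes. In the list 19 were negative, with a median of -0.34 that was -0.12 without young replicate 1. No member was above the young range in all 3 old libraries, and 6 were below it, beside 7.65% and 7.77% of all tested genes. Of 27 tested antioxidant and glutathione genes 1 passed. This was Gstm2, a glutathione S-transferase, at 70.1, 107 and 68.7 CPM in young cells and at 257, 208 and 234 CPM in old cells (log2 fold change 1.51 ± 0.24 SE, edgeR adjusted p = 0.0188). The list had 19 positive members and a median of 0.23. Of 15 tested genes of the circadian clock 1 passed, Npas2, a partner of Bmal1, at 66.8, 117 and 113 CPM in young cells and 32.6, 26.5 and 32.5 CPM in old cells (log2 fold change -1.69 ± 0.27 SE, edgeR adjusted p = 0.0188). In the 6 fits that each left out a library Hyou1 passed in 6, Gstm2 in 2 and Npas2 in 1.

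The lists of MHC class I presentation, interferon-stimulated genes and complement were positive in most members, and 0 of their members passed with all 6 libraries. All 13 tested genes of MHC class I presentation were positive, with a median of 0.40, and in 6 of them all old libraries were above all young ones, beside 7.65% of all tested genes. B2m, the light chain of class I molecules, was at 282, 208 and 182 CPM in young cells and at 393, 323 and 468 CPM in old cells (log2 fold change 0.82, edgeR adjusted p = 0.201). H2-D1, a class I heavy chain, was at 180, 187 and 125 against 246, 285 and 316 CPM. Of 29 tested interferon-stimulated genes 24 were positive, with a median of 0.61 and 0 past the threshold. Ifitm3, a membrane protein that restricts virus entry, was at 353, 396 and 358 CPM in young cells and at 508, 427 and 736 CPM in old cells (log2 fold change 0.59, edgeR adjusted p = 0.401). Of 9 tested complement genes 8 were positive, with a median of 0.71. Their most abundant member Serping1, the C1 inhibitor, was at 522, 971 and 883 CPM in young cells and at 1129, 1367 and 1381 CPM in old cells. MHC class II genes were too low to test. Without young replicate 1 the medians of the 3 tested lists were 0.63, 0.58 and 0.91. Of their members 2 interferon-stimulated genes then passed, Rtp4 (log2 fold change 3.22, edgeR adjusted p = 0.005) and Ly6e (1.26, edgeR adjusted p = 0.0315). In that fit 0.31% of all tested genes passed as higher.

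Markers of mature muscle fibres were higher in every old library than in every young one as a sum, 161 to 319 against 91.0 to 119 CPM. All 6 tested markers were positive with a median log2 fold change of 1.38, and 0 passed with all 6 libraries. Acta1, skeletal muscle actin, was at 55.3, 29.0 and 23.7 CPM in young cells and at 67.9, 160 and 119 CPM in old cells (log2 fold change 1.67, edgeR adjusted p = 0.0719). Without young replicate 1, Acta1, Ckm and Myl1, genes of the contractile apparatus and its energy supply, passed with log2 fold changes of 2.13, 2.38 and 2.86. In that fit 0.31% of all tested genes passed as higher. Acta1, Ckm and Myl1 are all in the list of myogenic commitment and differentiation. Of its 15 tested genes 0 passed with all libraries and 10 were negative. In 4 of the 15 all old libraries were above all young ones, and in 3 all were below, beside 7.65% and 7.77% of all tested genes. Myl1 is not among the fibre markers. Whether these transcripts came from satellite cells or from fibres carried through the sort was not tested.

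Some list medians turned sign with young replicate 1. Cell cycle genes had a median of -0.29 over 26 tested genes and of 0.35 without that library, senescence-associated genes -0.32 and 0.17, and secreted inflammatory factors -0.11 and 0.48. Their summed level was highest in young replicate 1 in each case, at 2143, 3065 and 2451 CPM. Ccnd2, a D-type cyclin, was at 647, 116 and 128 CPM in young cells and 127, 153 and 98.9 CPM in old cells. Cdkn1b, a cell cycle inhibitor counted among the senescence-associated genes, was at 1394, 1330 and 1392 CPM in young cells and 715, 829 and 231 CPM in old cells. Of these 3 lists 0 genes passed with or without the library. Ribosomal proteins and nuclear genes of oxidative phosphorylation had medians of 0.12 and 0.048, and 0 of 34 and 0 of 36 genes passed.

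**Figure D3:**
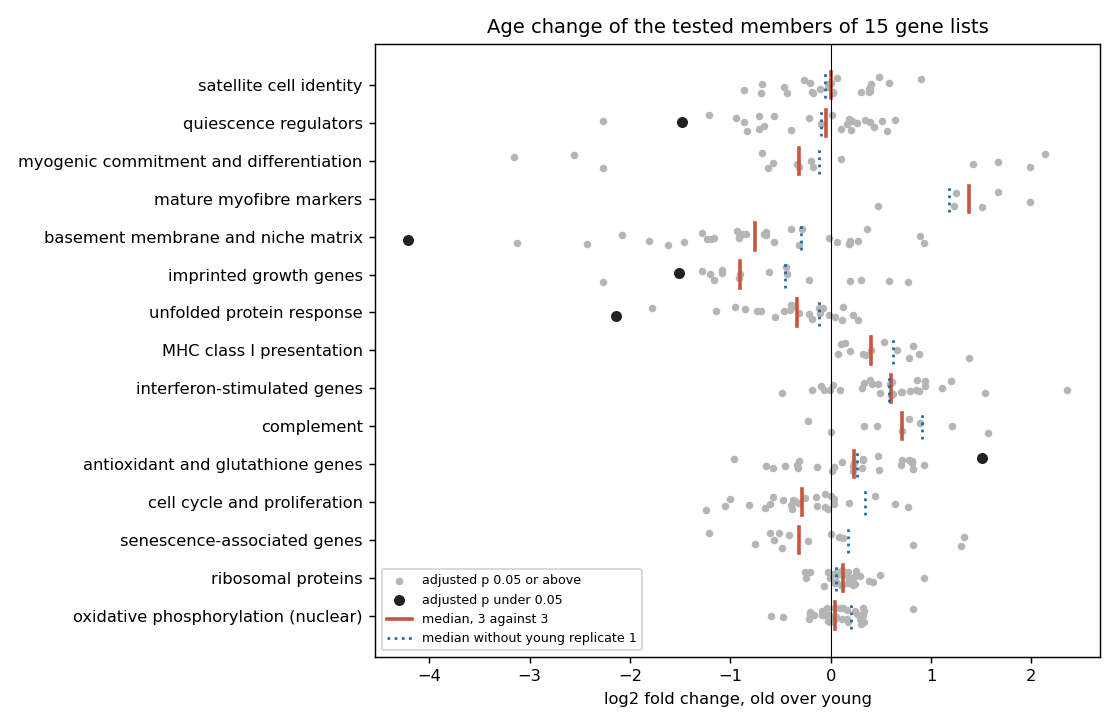
Log2 fold change of old over young satellite cells (x axis) for each tested member of 15 gene lists (y axis), with 1 point per gene, black where the adjusted p is under 0.05. Solid red bars are list medians with all libraries and dotted blue bars those without young replicate 1: the matrix median moves from -0.75 to -0.30 and the cell cycle median from -0.29 to 0.35.

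The age change in satellite cells was set against that in muscle fibroblasts with an interaction term, to find where the 2 cell types of one tissue differed. Among 11044 genes measured in both, 2 passed (0.0181%, edgeR adjusted p under 0.05), both with a lower change in satellite cells. Sox11 was at 87.1, 55.3 and 68.6 CPM in young and at 36.2, 50.7 and 54.7 CPM in old muscle fibroblasts, a log2 fold change of -0.57 ± 0.31 SE. The satellite cell change was lower than this by 3.34 ± 0.38 SE on the log2 scale (edgeR adjusted p = 0.000246). Arhgef4, a guanine nucleotide exchange factor, was at 2.03, 0.776 and 1.79 CPM in young and at 24.8, 61.6 and 59.1 CPM in old muscle fibroblasts. In satellite cells it was at 2.95, 4.50 and 22.3 CPM in young and at 0.388, 2.01 and 5.22 CPM in old libraries, where the groups overlapped. The interaction was -6.96 ± 1.05 SE (edgeR adjusted p = 0.00879). Within muscle fibroblasts alone Arhgef4 was the only called gene of 12046 (0.0083%). Its interaction missed the threshold without muscle fibroblast old replicate 2 (edgeR adjusted p = 0.0775) or young replicate 2 (0.100). Without the young replicate 1 libraries of both cell types, which both held Y chromosome transcripts, the same 2 genes passed.

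Of the 59 genes called in satellite cells 50 were also tested in muscle fibroblasts. There 21 of 25 higher genes had a positive log2 fold change, with a median of 0.56, and 14 of 25 lower genes a negative one, with a median of -0.017. The interaction passed for 1 of the 50, Sox11. Kng2 was at 1.22, 4.07 and 2.24 CPM in young and at 22.1, 18.6 and 16.6 CPM in old muscle fibroblasts (log2 fold change 2.80, edgeR adjusted p = 0.0594). Hyou1 and Rsl24d1 had log2 fold changes of 0.088 and -0.014 there, and their interactions of -2.20 and -2.13 had an edgeR adjusted p of 0.140.

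**Figure D4:**
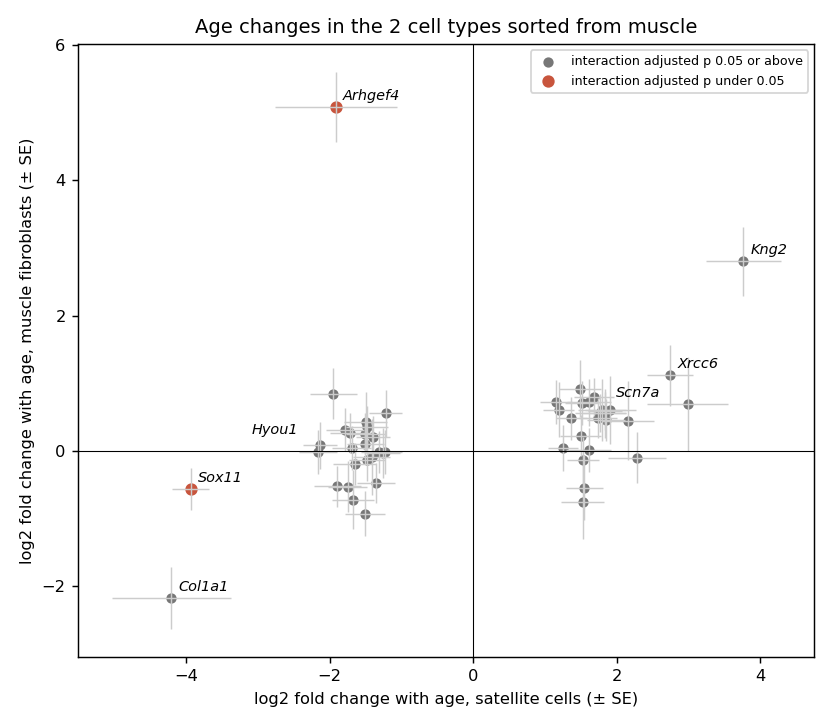
Log2 fold change with age in satellite cells (x axis) and in muscle fibroblasts (y axis), each ± SE from 3 old and 3 young libraries, for 50 genes called in satellite cells and for Arhgef4. The 2 red points, Sox11 and Arhgef4, passed the interaction test. The lower genes have a median of -0.017 in muscle fibroblasts, with Col1a1 lowest at -2.17.

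Across all cell types, in plain CPM of all counts, young satellite cells had the highest median of Sox11 at 314 (range 265 to 421), and young muscle fibroblasts were next at 71.1 (56.6 to 84.2). In old mice satellite cells were second with a median of 23.0 (21.5 to 25.4), behind muscle fibroblasts at 42.8 (36.9 to 56.5) and before neurons at 18.3 (3.53 to 27.1), whose range overlapped. Hyou1 was also highest in young satellite cells, with a median of 345 (307 to 403), and ranked 12 of 23 cell types in old mice with a median of 82.3. Xrcc6 ranked 19 in young mice with a median of 16.2 and 2 in old mice with 97.8. Old beta cells were next at 95.1 (68.4 to 139), a range that contained that of old satellite cells (75.9 to 134). No difference between cell types in these levels was tested.

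In own fits of the other 22 cell types, Sox11 was measured in 11 and had a negative log2 fold change in 10. Casp4 was positive in 18 of 20 cell types, Tmem176b in 19 of 22 and Anxa1 in 19 of 20, the last 2 being called genes named after their values were seen. Kng2 was positive in 6 of 6. Xrcc6 was negative in 14 of 22, with its highest value, 1.12, in muscle fibroblasts. The 26 lower genes had their 5 lowest medians in brain endothelial cells (-0.81, 21 of 22 negative), CD8 naive T cells (-0.58, 15 of 18), thymic fibroblasts (-0.43, 20 of 23), CD8 virtual memory T cells (-0.42, 14 of 18) and skin fibroblasts (-0.41, 20 of 22). Their 4 highest medians were in CD8 memory T cells (0.85, 14 of 19 positive), lymph endothelial cells (0.45, 15 of 22), kidney tubular cells (0.39, 17 of 24) and neurons (0.36, 15 of 21). The medians over all tested genes in the 22 cell types lay between -0.020 and 0.035.

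**Figure D5:**
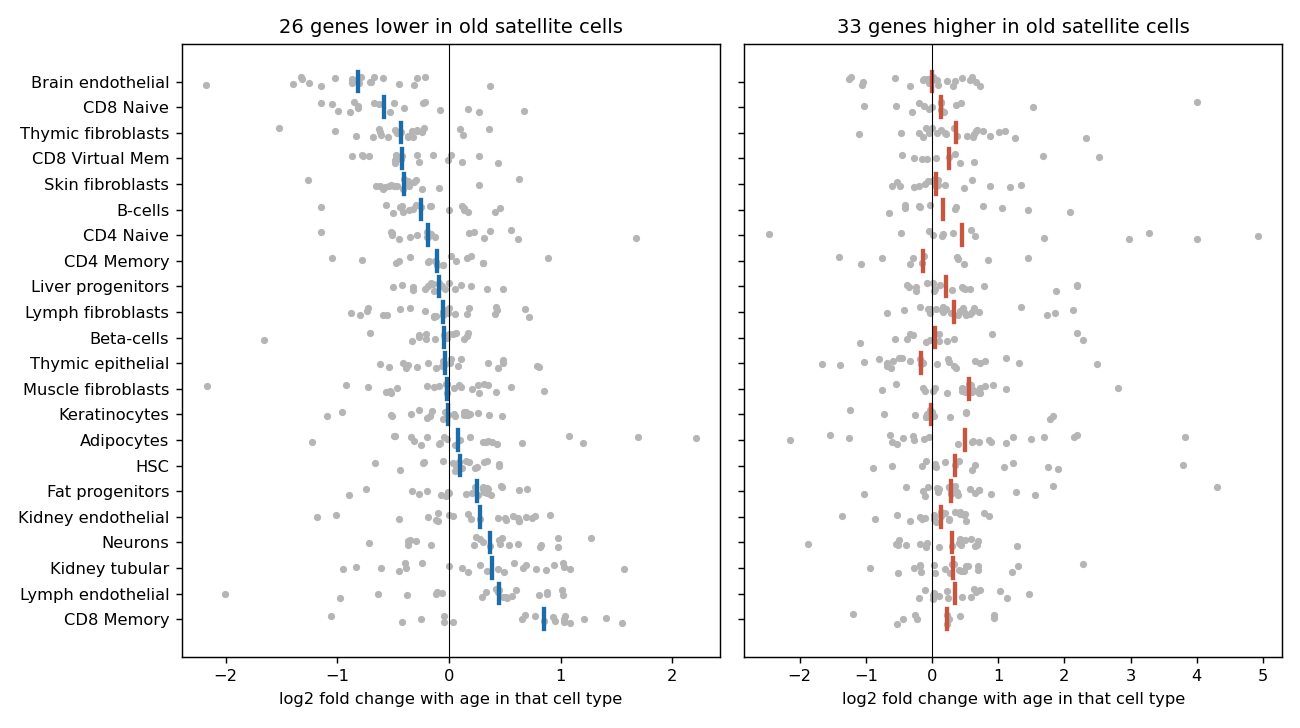
Log2 fold change with age (x axis) in 22 other cell types (y axis) of the genes called lower (left) and higher (right) in old satellite cells, with 1 grey point per measured gene and a bar at the median. The lower genes have their lowest median in brain endothelial cells (-0.81) and their highest in CD8 memory cells (0.85).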

How the data were processed

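Per the labels' protocols, RNA from sorted cells was sequenced from its poly(A) end, with a sample index (8 bp) and a molecular identifier (10 bp). No source used here says whether identifiers were collapsed. Samples were separated with sabre 80faf94, per the labels' protocols. Tools named in the submitters' processing notes are STAR and featureCounts 2.0.1, beside the builds mm10 and GRCm38.p6. The authors deposited whole-number counts for 55484 genes in 170 libraries, and 0 columns were left unused.

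Old and young satellite libraries were compared by the quasi-likelihood test of edgeR 4.0.16 in R 4.3.3, with TMM factors, after filterByExpr (minimum count 10, minimum total 15). SE is the log2 fold change divided by the root of F. Members and lists were chosen with earlier results of these data known. Named genes were the 12 highest and 12 lowest log2 fold changes among called genes of at least 20 CPM with no overlap of libraries, up to 5 per direction of interaction, up to 4 called members of each list, or at most 2 most abundant members where none passed, and the markers. Sex-linked genes, unnamed models, pseudogenes and antisense genes were left out. A called entry with a number for a name was counted and not named. Promoter windows and coordinates are from RefSeq on GRCm38.p6. No 2 libraries of a group were identical, with a chi-square per degree of freedom of at least 6.71. Negative binomial counts were simulated from the fitted spread of each gene and the depth of each library. No simulated library stood apart as young replicate 1 did, so the rates of false calls need not hold for these data. In simulated counts the satellite test on 11822 genes found 14% of the genes changed 2-fold and 74% of those changed 4-fold, and 5.38% of its 93 calls were false. The interaction test on 10567 genes recovered 2% and 37%, and 11.4% of its 44 calls were false. Alternatives were RLE size factors, no filter, DESeq2 1.42.0, a replicate block, a spread shared with muscle fibroblasts and leaving out each library. Leaving out both young replicate 1 libraries in the interaction was chosen after seeing the data.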

Additional observations from a re-analysis of the deposited data

Results flagged for a closer look

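The age change differed between satellite cells and muscle fibroblasts in 2 genes by the test of the difference itself. The interaction of Arhgef4 was -6.96 on the log2 scale (edgeR adjusted p = 0.00879), with higher levels in 3 of 3 old than in all young muscle fibroblast libraries. The interaction of Sox11 was -3.34 (edgeR adjusted p = 0.000246), with lower levels in 3 of 3 old than in all young libraries of satellite cells. In muscle fibroblasts the highest old value, 54.7 CPM, was barely below the lowest young value, 55.3 CPM. The change there did not pass (log2 fold change -0.57, edgeR adjusted p = 0.598).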

How the results depend on the processing

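The count of 59 called genes, 33 higher and 26 lower, was 57 with RLE size factors and 76 with a spread shared with muscle fibroblasts. It was 412 (141 higher, 271 lower) with no filter on low counts and 215 (88 higher, 127 lower) with DESeq2. Leaving out each library in turn gave 9 to 98 called genes, 6 to 40 higher and 3 to 58 lower, and the lowest counts came without old replicate 3. Of 28 named genes called with all libraries, 6 to 27 kept their call when a library was left out, and 0 changed direction in the settings run. The interaction count of 2 was 131 with no filter and 21 with DESeq2, and 1 to 3 with each library left out.

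Replicate numbers come from the titles. Same-numbered old and young libraries deviated with correlations of -0.0128, 0.0196 and 0.0371, so they were not taken as pairs. With a replicate block 54 genes were called, 28 higher and 26 lower, 46 of them among the 59, and the interaction count was 2.

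Genes of a few CPM rest on few counts. In simulated counts of the satellite test 14% of 2-fold changes were recovered. Depth was not varied there, so its part in this was not tested.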
